A study of Mus musculus with 10 samples.

Results

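Toll-like receptors are membrane proteins that recognise molecules of microbes and start an inflammatory response through a cytoplasmic TIR domain. The set described here holds 10 mouse genes of this family, Tlr1 to Tlr9 and Tlr13. The members were chosen by symbol, each matched a single row of the 55414 genes in the count table, and all 10 had enough reads to be tested. The libraries came from splenic macrophages that had been enriched with magnetic beads against the macrophage surface protein F4/80. 5 libraries were from mice knocked out for Fpr2 (Fpr2KO, also written Fpr2-/-) and 5 from wild-type C57BL/6N mice (WT). No treatment, age or strain background of the knockout line is given in the labels, and all 10 libraries share the same isolation. Fpr2 encodes formyl peptide receptor 2, a chemotactic receptor of myeloid cells. Expression was measured by sequencing polyadenylated RNA. Separate animals are not stated for the replicates, so the p-values rest on the spread among these libraries, and that spread may be technical.

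In the mouse, the family divides by where the proteins meet their ligands. At the cell surface, TLR2 pairs with TLR1 or TLR6 to recognise bacterial lipopeptides, TLR4 with its partner MD-2 binds lipopolysaccharide, and TLR5 binds flagellin. In endosomes, TLR3 recognises double-stranded RNA, TLR7 single-stranded RNA, TLR9 unmethylated DNA and TLR13 a sequence of bacterial ribosomal RNA, after the carrier UNC93B1 has brought them there from the endoplasmic reticulum. Macrophages of the splenic red pulp filter blood and take up aged red cells and circulating microbes.

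By edgeR's quasi-likelihood test, 0 of the 10 receptor genes differed between Fpr2KO and WT at a Benjamini-Hochberg false discovery rate (FDR) of 0.05, and 2 had an unadjusted p under 0.05. Of all 14669 genes tested, 0.0682% passed the FDR, 0.0614% lower and 0.00682% higher in Fpr2KO. Tlr13 and Tlr2 had the lowest estimates and were the members with an unadjusted p under 0.05, as were 9.8% of all genes. Tlr13 averaged 96.7 ± 14.8 CPM (counts scaled to library size) in Fpr2KO and 129.6 ± 18.5 CPM in WT (SD, n = 5 each), which gave a log2 fold change of -0.42 with an SE of 0.12 (edgeR, unadjusted p = 0.00343, FDR = 0.253). Tlr2 averaged 62.0 ± 11.9 CPM in Fpr2KO and 80.99 ± 16.05 CPM in WT (log2 fold change -0.38, SE 0.16, unadjusted p = 0.0301, FDR = 0.459 by edgeR). DESeq2 passed 0 of the 10, against 1.09% of all genes, with its lowest adjusted p at 0.0771 for Tlr13.

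Among the 10, 7 had lower and 3 had higher estimates in Fpr2KO, and their median log2 fold change was -0.15. Over all genes tested the median was 0.01 and 46.8% had lower estimates. The members were chosen with earlier results of these data known, so these counts are a description without a test. The 95% intervals of the 10 log2 fold changes ran between -0.73 at the low end and 0.52 at the high end, so larger differences than these were outside every interval before any adjustment for the number of genes. A p that misses the threshold does not show equal expression.

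**Figure D1:**
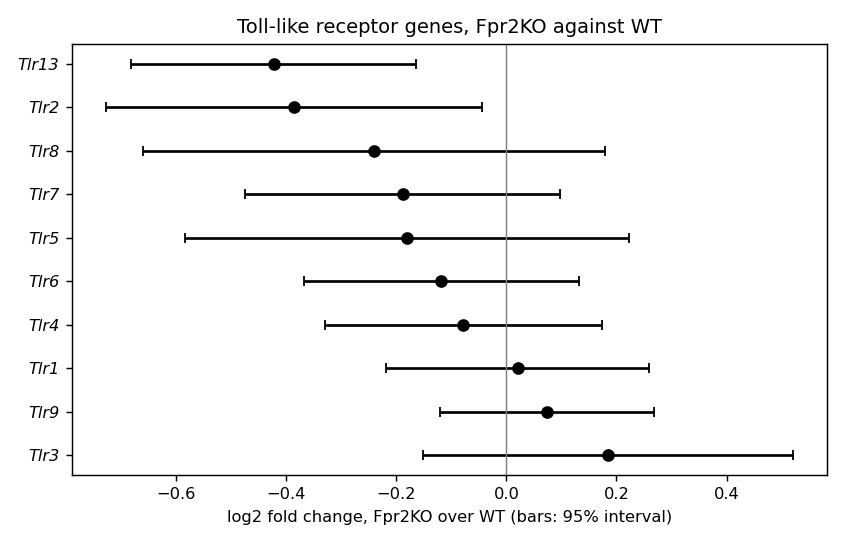
Log2 fold change of each Toll-like receptor gene (rows) in Fpr2KO over WT, from edgeR; points are estimates and bars are 95% intervals, not adjusted for the number of genes. The intervals of Tlr13 (-0.68 to -0.16) and Tlr2 (-0.73 to -0.04) lie below 0, and the other 8 include it.

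Sequences around the annotated starts of 5 members are shown, those with the lowest estimates (Tlr13, Tlr2) and all 3 with estimates above 0 (Tlr3, Tlr9, Tlr1, which has 2 windows). Each is 250 bases before to 50 after a RefSeq start in GRCm38.p6, written 5′ to 3′ on the strand of the gene. Capitals mark matches to 2 motifs searched on both strands: GAGGAA, the core read by the myeloid factor PU.1, and GGGNNTTCC, an NF-kB-type site. RefSeq windows were at hand for 8 of the 10 members, without Tlr4 and Tlr7.
Tlr13 (chrX:106143025-106143324, plus strand): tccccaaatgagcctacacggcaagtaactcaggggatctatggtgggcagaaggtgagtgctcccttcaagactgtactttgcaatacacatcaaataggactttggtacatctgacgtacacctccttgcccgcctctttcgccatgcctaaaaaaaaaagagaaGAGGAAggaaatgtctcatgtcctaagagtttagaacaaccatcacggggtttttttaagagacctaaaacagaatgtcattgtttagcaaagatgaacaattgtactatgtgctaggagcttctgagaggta
Tlr2 (chr3:83841559-83841858, minus strand): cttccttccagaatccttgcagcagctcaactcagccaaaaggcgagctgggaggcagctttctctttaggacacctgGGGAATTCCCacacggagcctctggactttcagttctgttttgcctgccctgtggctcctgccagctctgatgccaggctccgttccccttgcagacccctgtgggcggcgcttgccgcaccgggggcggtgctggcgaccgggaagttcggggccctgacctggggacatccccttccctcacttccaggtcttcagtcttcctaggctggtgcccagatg
Tlr3 (chr8:45410331-45410630, minus strand): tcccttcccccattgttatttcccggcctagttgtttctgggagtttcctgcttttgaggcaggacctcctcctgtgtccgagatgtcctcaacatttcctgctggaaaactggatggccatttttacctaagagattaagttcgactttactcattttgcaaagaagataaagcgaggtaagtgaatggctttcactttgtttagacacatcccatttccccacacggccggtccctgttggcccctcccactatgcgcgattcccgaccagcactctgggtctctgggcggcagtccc
Tlr9 (chr9:106222348-106222647, plus strand): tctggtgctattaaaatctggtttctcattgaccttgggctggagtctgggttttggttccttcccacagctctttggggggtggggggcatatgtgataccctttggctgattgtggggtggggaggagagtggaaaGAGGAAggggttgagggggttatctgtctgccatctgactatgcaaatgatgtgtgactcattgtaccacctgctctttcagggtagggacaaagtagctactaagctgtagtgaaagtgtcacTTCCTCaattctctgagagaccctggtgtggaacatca
Tlr1, first window (chr5:64933509-64933808, minus strand): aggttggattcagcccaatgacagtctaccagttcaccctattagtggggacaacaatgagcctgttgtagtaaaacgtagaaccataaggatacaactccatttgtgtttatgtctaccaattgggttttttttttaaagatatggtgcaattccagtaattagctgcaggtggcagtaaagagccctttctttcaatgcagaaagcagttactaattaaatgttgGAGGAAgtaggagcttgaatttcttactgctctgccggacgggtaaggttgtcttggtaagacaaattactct
Tlr1, second window (chr5:64932650-64932949, minus strand): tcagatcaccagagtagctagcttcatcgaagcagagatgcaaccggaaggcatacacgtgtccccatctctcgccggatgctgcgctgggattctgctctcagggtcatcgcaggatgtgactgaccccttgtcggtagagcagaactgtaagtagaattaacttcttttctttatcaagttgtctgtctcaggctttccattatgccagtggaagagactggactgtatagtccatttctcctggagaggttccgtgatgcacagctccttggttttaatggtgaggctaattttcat
The 8 members had 10 windows. GAGGAA occurred in 4 of these 10, 1 each of Tlr1, Tlr8, Tlr9 and Tlr13, and in 28.3% of all 32851 RefSeq windows. The match of Tlr13 began 83 bases before the start and that of Tlr1 23 bases before it, in the first window. The windows of Tlr3, Tlr5 and Tlr6 and the second window of Tlr1 held neither motif. GGGNNTTCC occurred in 1 of the 10, that of Tlr2, and in 5.8% of all windows. In Tlr2 it matched on both strands, as overlapping matches that together make the capitals, beginning 172 bases before the start. These matches describe letters in the window, and no binding was measured.

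Among the surface receptors, Tlr2 (ENSMUSG00000027995, chromosome 3, 83836272 to 83841767, GRCm38, minus strand) encodes the shared partner of both lipopeptide receptors. It was measured at 62.8, 76.7, 61.8, 43.6 and 65.3 CPM in Fpr2KO replicates 1 to 5, against 95.01, 93.1, 86.9, 56.7 and 73.2 CPM in WT. All 5 Fpr2KO libraries lay below the WT median of 86.9 CPM, but the groups overlapped, since WT replicates 4 and 5 were low. Tlr1 (ENSMUSG00000044827, chromosome 5, 64924679 to 64933563), the partner for triacylated lipopeptides, was measured at 89.3, 124.5, 105.8, 124.5 and 126.7 CPM in Fpr2KO, against 124.0, 115.2, 91.9, 106.7 and 124.8 CPM in WT. The groups of Tlr1 covered nearly the same range, with a log2 fold change of 0.02 (SE 0.11, 95% interval -0.22 to 0.26) and its sign turned when Fpr2KO replicate 2, 4 or 5 or WT replicate 3 was left out. Tlr6 (ENSMUSG00000051498, chromosome 5, 64952031 to 64960097), the partner for diacylated lipopeptides, was measured at 17.9, 20.9, 18.7, 16.5 and 21.3 CPM in Fpr2KO, against 21.8, 21.5, 23.6, 15.7 and 20.8 CPM in WT. All 5 Fpr2KO libraries of Tlr6 were below the WT median of 21.5 CPM, yet the lowest library of all was WT replicate 4 (log2 fold change -0.12, SE 0.12). Without that library the estimate was -0.20, and without Fpr2KO replicate 4 or WT replicate 3 it was -0.07. For Tlr2 and Tlr6 alike, the share of all genes with every Fpr2KO library below the WT median was not counted.

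Tlr1 and Tlr6 are neighbours on chromosome 5, and 20.02% of the 31-base sequences of Tlr1 transcripts and 16.6% of those of Tlr6 also occur in another gene. For Tlr1, 18.3% were shared with Tlr6 itself. The longest run of bases common to both is 229 bases long and lies in the coding sequence of each, at chr5:64925537-64925765 in Tlr1 and chr5:64953828-64954056 in Tlr6 (GRCm38, minus strand, GENCODE M21). It is shown because reads inside it cannot be assigned to either gene by sequence.
Tlr1 and Tlr6 common run: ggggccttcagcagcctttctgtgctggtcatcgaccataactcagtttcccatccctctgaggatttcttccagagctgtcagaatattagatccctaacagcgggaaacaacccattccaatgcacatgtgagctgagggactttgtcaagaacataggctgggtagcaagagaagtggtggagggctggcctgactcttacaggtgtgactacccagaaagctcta
The sources used here do not give how such reads were counted, so the counts of Tlr1 and Tlr6 are uncertain to that extent. Tlr3 shares 6.1% with Gm45542, an antisense gene that had 5 reads in all, Tlr4 shares 0.67% with other genes, and the remaining 6 members share 0%.

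Tlr4 (ENSMUSG00000039005, chromosome 4, 66827584 to 66930284), the lipopolysaccharide receptor, was measured at 45.6, 62.9, 48.6, 37.1 and 45.6 CPM in Fpr2KO, against 46.9, 57, 47.4, 52.4 and 49.4 CPM in WT. The highest and the lowest library were both Fpr2KO, replicates 2 and 4, and the WT range lay inside the Fpr2KO range (log2 fold change -0.08, SE 0.12). Without Fpr2KO replicate 4 the estimate was 0.00. Tlr5 (ENSMUSG00000079164, chromosome 1, 182954788 to 182976044), the flagellin receptor, had the fewest reads of the family, 1671 over all libraries. It was measured at 7.94, 6.97, 7.38, 7.82 and 14.4 CPM in Fpr2KO, against 10.2, 11.5, 8.43, 11.0 and 9.42 CPM in WT. Replicates 1 to 4 of Fpr2KO lay below every WT library and replicate 5 above every one of them, though with total counts 3 of them did and with TPM 2. Its log2 fold change was -0.18 (SE 0.19), and without Fpr2KO replicate 5 it was -0.43, with an FDR of 0.264 by edgeR, the lowest among its alternatives.

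Among the endosomal receptors, Tlr13 (ENSMUSG00000033777, chromosome X, 106143204 to 106160493, plus strand) was measured at 98.3, 107.4, 101.4, 71.1 and 105.4 CPM in Fpr2KO, against 112.0, 124.2, 158.3, 117.1 and 136.6 CPM in WT. Every Fpr2KO library lay below every WT library, a pattern that 0.566% of all genes tested showed in this direction, 0.825% in the other and 1.39% in either. The margin was narrow, 107.4 CPM in the highest Fpr2KO library against 112.0 CPM in the lowest WT library. With library sizes scaled by RLE or upper quartile the groups stayed apart, whereas with total counts or with TPM (counts per exon length, scaled to a common sum) 4 of 5 Fpr2KO libraries lay below all WT libraries. By p-value Tlr13 was gene 199 of the 14669. Without Fpr2KO replicate 4, its lowest library, the log2 fold change was -0.33, and over all 16 alternative settings it ran between -0.48 and -0.33.

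Tlr7 and Tlr8 lie side by side on chromosome X. Tlr7 (ENSMUSG00000044583, 167304929 to 167330558), a receptor for single-stranded RNA, was measured at 113.6, 176.5, 132.9, 97.2 and 122.7 CPM in Fpr2KO, against 125.2, 153.3, 141.4, 149.7 and 162.9 CPM in WT. Tlr8 (ENSMUSG00000040522, 167242696 to 167264329), its closest relative by position, was measured at 49.4, 74.9, 61.8, 32.4 and 46.1 CPM in Fpr2KO, against 58.2, 69.6, 69.3, 49.5 and 65.7 CPM in WT. For both genes Fpr2KO replicate 2 was the highest and replicate 4 the lowest of all 10 libraries, so the WT ranges were inside the Fpr2KO ranges. The log2 fold changes were -0.19 for Tlr7 (SE 0.13) and -0.24 for Tlr8 (SE 0.19). Without Fpr2KO replicate 2 they were -0.34 for Tlr7 and -0.41 for Tlr8, and without Fpr2KO replicate 4 they were -0.10 for Tlr7 and -0.11 for Tlr8. The family has 3 X-linked members, and the libraries did not differ in sex: Xist had 12 reads over all 10, and the Y-linked gene Ddx3y was measured between 115.9 and 199.9 CPM in Fpr2KO and between 131.3 and 181.6 CPM in WT.

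Tlr9 (ENSMUSG00000045322, chromosome 9, 106222598 to 106226883), the receptor for unmethylated DNA, was measured at 59.3, 76.1, 70.6, 68.8 and 79.3 CPM in Fpr2KO, against 60.8, 64.4, 66.0, 67.6 and 77.6 CPM in WT. 4 of the 5 Fpr2KO libraries were above the WT median of 66.0 CPM, and the groups overlapped over nearly their whole range. Its log2 fold change of 0.07 had the smallest SE of the family, 0.09, and ran from 0.03 without Fpr2KO replicate 5 to 0.12 without Fpr2KO replicate 1. Tlr3 (ENSMUSG00000031639, chromosome 8, 45395665 to 45411080), the receptor for double-stranded RNA, was measured at 25.3, 32.9, 29.0, 23.5 and 21.6 CPM in Fpr2KO, against 25.9, 20.96, 15.4, 26.7 and 27.4 CPM in WT. The single lowest library was WT replicate 3, and the log2 fold change was 0.19 (SE 0.16). Without WT replicate 3 it was 0.06, and without Fpr2KO replicate 2 it was 0.09.

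**Figure D2:**
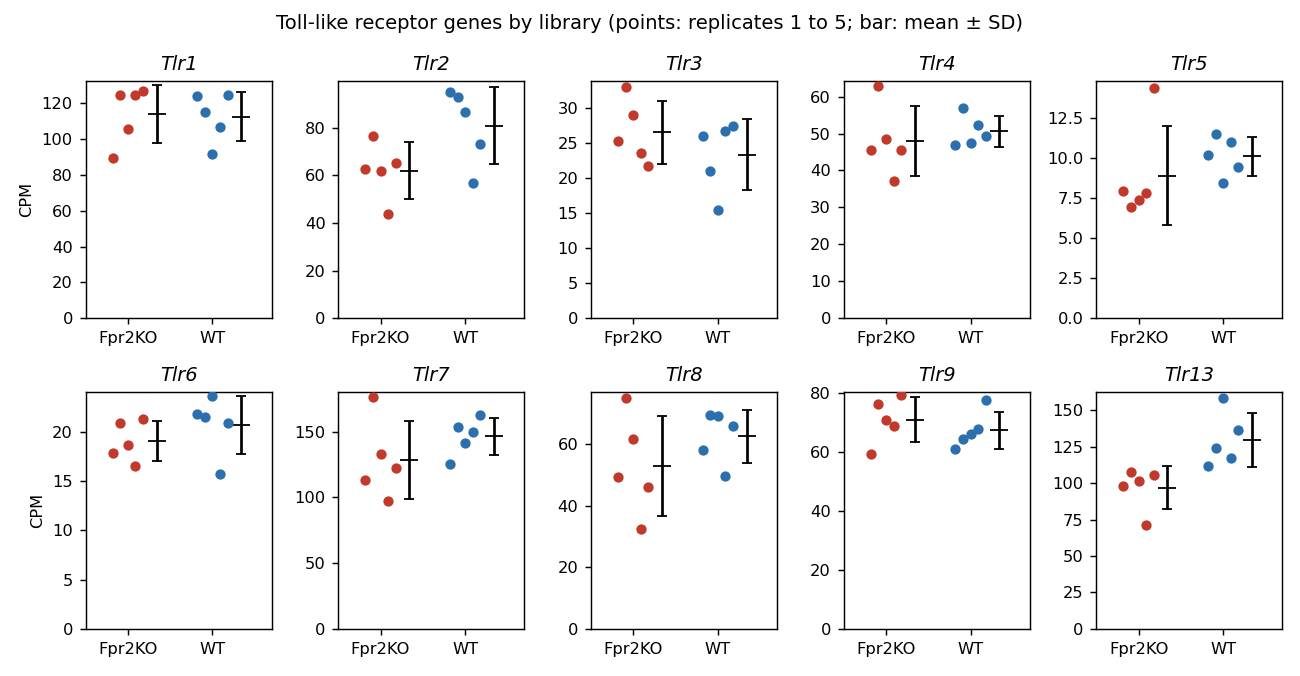
CPM of each Toll-like receptor gene (vertical axes, each with its own scale from 0) in the 5 Fpr2KO libraries (red, left) and the 5 WT libraries (blue, right), with replicates 1 to 5 from left to right in each group; black bars give mean ± SD. Tlr13 alone has no overlap in CPM, with 107.4 as the highest Fpr2KO library and 112.0 as the lowest WT library; with total counts or TPM its groups overlap.

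Levels were set between genes in TPM. In order of the mean over the 10 libraries, Tlr1 and Tlr7 came first with 88.3 ± 16.4 and 87.1 ± 15.8 TPM (SD, n = 10), followed by Tlr13 (67.7 ± 12.6), Tlr2 (61.4 ± 15.0), Tlr9 (51.6 ± 8.20) and Tlr8 (41.4 ± 9.13 TPM). A step down led to Tlr4 with 22.98 ± 3.84 TPM, then to Tlr6 (13.8 ± 2.12), Tlr3 (12.4 ± 2.60) and Tlr5 (5.21 ± 1.72 TPM). Tlr1 stood above 94.9% and Tlr5 above 63.2% of the genes with a read. The TPM ranges of every pair of neighbours in this order overlapped across the libraries. Within the libraries, however, Tlr8 was above Tlr4, Tlr4 above Tlr6, and Tlr3 above Tlr5 in 10 of 10, whereas Tlr1 was above Tlr7 in 3 of 10 and Tlr6 above Tlr3 in 5 of 10. The order was the same in Fpr2KO and WT except that Tlr1 led in Fpr2KO (90.4 ± 19.8 TPM, with Tlr7 at 82.8 ± 20.2) and Tlr7 led in WT (91.5 ± 10.2 TPM, with Tlr1 at 86.1 ± 14.2; SD, n = 5).

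**Figure D3:**
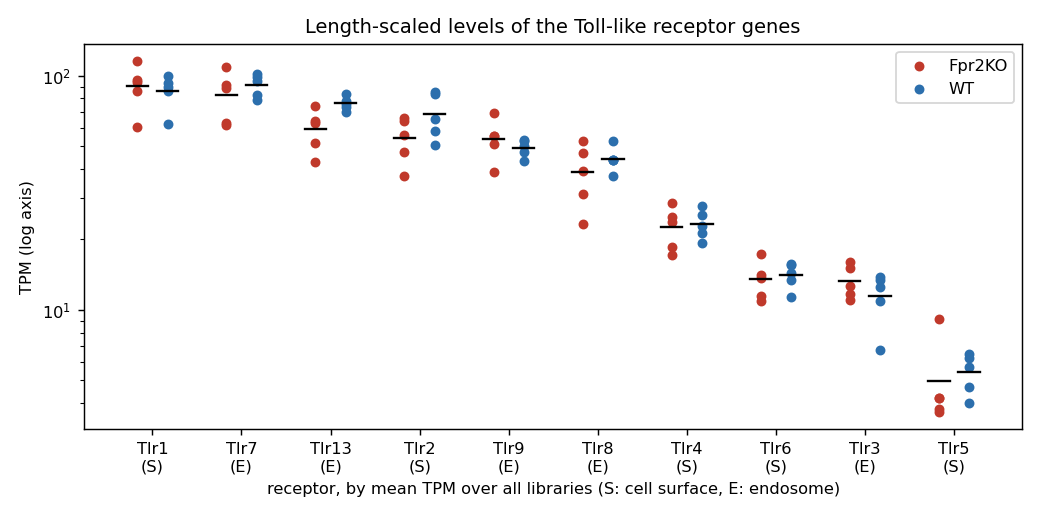
TPM of each receptor gene (log axis) in order of its mean over all libraries, Fpr2KO in red on the left of each pair and WT in blue; points are libraries, bars are group means, and S and E mark cell surface and endosomal receptors. 6 genes sit between 41.4 and 88.3 TPM on average, and Tlr5 is lowest at 5.21 TPM.

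The endosomal receptors Tlr3, Tlr7, Tlr8, Tlr9 and Tlr13 together held 57.1 ± 2.68% of the summed TPM of the 10 genes in Fpr2KO and 58.1 ± 3.43% in WT (SD, n = 5 each). This share spanned 53.4 to 59.6% in Fpr2KO libraries and 52.9 to 60.7% in WT libraries. The sum itself ran from 336.9 to 519.0 TPM in Fpr2KO and from 421.6 to 519.3 TPM in WT. Between the alternative partners of TLR2, Tlr1 exceeded Tlr6 in TPM by 5.56 to 8.40 times in Fpr2KO libraries and by 4.34 to 7.57 times in WT libraries. Tlr2 stood at 3.27 to 4.53 times Tlr6 in Fpr2KO and at 4.34 to 5.38 times in WT. Ly96, which encodes MD-2, stood at 1.13 to 1.45 times Tlr4 in Fpr2KO and at 1.21 to 1.47 times in WT.

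Within the Fpr2KO group several members had their extremes in the same libraries. Replicate 2 was the highest Fpr2KO library for Tlr2, Tlr3, Tlr4, Tlr7, Tlr8 and Tlr13, 6 of the 10 members, and replicate 4 the lowest for Tlr2, Tlr4, Tlr6, Tlr7, Tlr8 and Tlr13, also 6. The share of all genes with their extremes in replicates 2 and 4 was not counted, so this may not be particular to the family. In log2 CPM, Tlr8 deviated by 0.56 in replicate 2 and by -0.65 in replicate 4 from the Fpr2KO mean, and Tlr7 by 0.49 and -0.37. Tlr1 and Tlr9 did not follow, both being lowest in Fpr2KO replicate 1. Replicate 2 also had the highest summed CPM of the group for red pulp macrophage markers (10760). Its share of mitochondrial counts was the highest too (6.04%, against 3.22 to 3.985% in the other Fpr2KO libraries). The same library had the lowest summed CPM for classical monocyte markers (410.5, against 421.6 to 695.4 in the others). For nonclassical monocyte markers it was also the lowest (651.4, against 706.6 to 994.5). Replicate 4 had the lowest summed CPM of the group for red pulp macrophage markers (7825, against 9603 to 10760 in the others) and for neutrophil markers (532.4, against 727.1 to 990.9), and the highest for B cell markers (3836, against 2871 to 3565). In bulk samples, fewer cells of a type and less RNA per cell cannot be told apart, and the part of these markers or of the mitochondrial share in the receptor values was not tested. In WT no library was the highest, and none the lowest, for more than 4 of the 10 members.

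**Figure D4:**
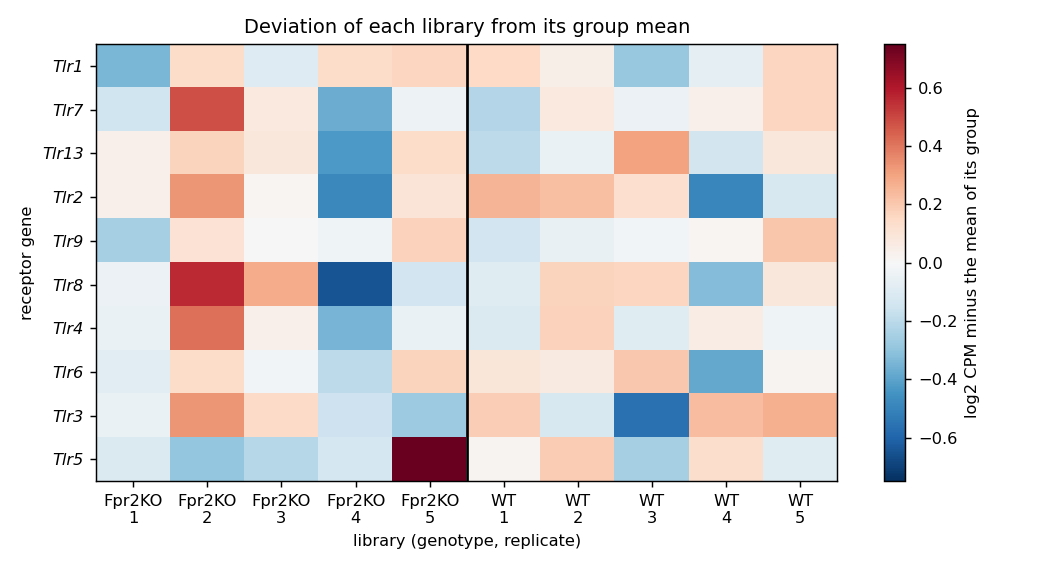
Log2 CPM of each receptor gene (rows, in order of level) in each library (columns, Fpr2KO left and WT right of the line) minus the mean of its group; red is above and blue below. Fpr2KO replicate 2 is above its group mean for Tlr7 (0.49) and Tlr8 (0.56), replicate 4 is below it for both (-0.37 and -0.65), and Tlr5 stands out in replicate 5 (0.74).

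The genes whose pattern over the 10 libraries was most like that of a receptor were found by Pearson's r of log2 CPM after the group means were taken off, among 9344 protein-coding genes. They are the highest of many values over few libraries that share depth and composition, so they are a description without a test. Closest to Tlr13 were Clec4a3, Gpr141 and Ms4a6c (r between 0.92 and 0.93). Closest to Tlr2 were Cd33, Trps1 and Dmxl2 (r between 0.97 and 0.98). Tlr4 was followed most closely by Rasal2, Selenop and Il18, and Tlr7 by Tmx1, Frmd4a and Dck, with r between 0.955 and 0.975 over these genes. Tlr8 was closest to Picalm, Dis3l and Arl6ip6 (r between 0.94 and 0.956). The lowest best match of the 10 was that of Tlr9, Rbak, with r = 0.91.

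Other genes of the pathway were taken from 8 lists with 99 genes, of which 97 were tested and 0 passed the FDR by edgeR. At an unadjusted p under 0.05, 3 were higher and 15 lower in Fpr2KO, where 4.88% of all genes were higher and 4.92% lower. The lists were chosen with earlier results of these data known, so counts and medians over them are a description without a test. DESeq2 passed 2, Ccl3 and Nlrp3. The remaining mouse receptors of the family, Tlr11 and Tlr12, which recognise the profilin of parasites, had higher estimates (log2 fold changes 0.22, SE 0.13, and 0.16, SE 0.13).

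Of 6 surface co-receptors, 4 had lower estimates with a median log2 fold change of -0.08: Cd14, which hands lipopolysaccharide to TLR4, averaged 95.3 ± 21.3 CPM in Fpr2KO and 104.0 ± 14.9 CPM in WT, and Ly96 averaged 11.6 ± 2.35 CPM in Fpr2KO and 12.97 ± 1.66 CPM in WT (SD, n = 5 each). The lowest estimate of that list was that of Lbp, a serum protein that binds lipopolysaccharide, at -0.70 (SE 0.31), from means of 0.621 CPM in Fpr2KO and 1.01 CPM in WT. Of 14 genes for chaperones, transport and ligand processing, 8 had higher estimates (median 0.01). Unc93b1, the carrier of the endosomal receptors, averaged 740.4 CPM in Fpr2KO and 709.7 CPM in WT (log2 fold change 0.06, FDR = 0.851 by edgeR), and the chaperone Hsp90b1 1211 CPM in Fpr2KO and 1049 CPM in WT. Rnaset2a, a ribonuclease of lysosomes, had the smallest p of that list, with an estimate of 0.47 (SE 0.19; edgeR FDR = 0.443). It has a close copy, Rnaset2b, so reads may have been split between them.

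Downstream of the receptors, 5 of 6 adaptors had lower estimates, with a median of -0.10. Myd88, the adaptor of all members except TLR3, averaged 81.9 ± 4.94 CPM in Fpr2KO and 87.96 ± 4.31 CPM in WT (log2 fold change -0.10, SE 0.07), and Ticam2, which links TLR4 to the adaptor TRIF, 24.5 ± 2.59 CPM in Fpr2KO and 27.9 ± 3.47 CPM in WT. Of 20 kinases and ubiquitin ligases, 15 had lower estimates (median -0.05), and Map3k8, a kinase that activates ERK, had the smallest p (log2 fold change -0.27, SE 0.12, FDR = 0.491 by edgeR). The 10 transcription factors split evenly, 5 higher and 5 lower. Irf3, which drives interferon genes after TLR3 and TLR4, was estimated at 0.29 (SE 0.13; edgeR FDR = 0.503). Rel, an NF-kB subunit, had one of -0.39 (SE 0.24), with WT libraries spread widely (380.6 ± 164.3 CPM), and without WT replicate 1 the estimate was -0.12.

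The lowest median, -0.31, was that of the 22 induced target genes tested, 16 of which had lower estimates. Ccl3, a chemokine that recruits leukocytes, was measured at 63.8, 65.7, 60.1, 57.7 and 79.7 CPM in Fpr2KO, against 111.7, 114.7, 104.5, 71.5 and 82.0 CPM in WT (log2 fold change -0.57, SE 0.13, FDR = 0.165 by edgeR). Ccl3 passed with no filter on low counts (FDR = 0.0493 by edgeR, where 0.217% of all genes passed), without WT replicate 4 (0.0436, where 0.175% passed) and by DESeq2 (adjusted p = 0.0121). In Ccl3 the overlap came from Fpr2KO replicate 5 and WT replicate 4. The related chemokine Ccl4 had a log2 fold change of -0.46 (SE 0.13), the inflammasome sensor Nlrp3 one of -0.65 (SE 0.19) and the neutrophil chemokine Cxcl2 one of -0.99 (SE 0.33). In Ccl4, Nlrp3 and Cxcl2, and in Atf3 and Nfkbia named next, WT replicates 4 and 5 lay inside the Fpr2KO range. WT replicates 1 to 3 lay above that range in each of these genes. Cxcl2 was at 130.4 and 136.2 CPM in WT replicates 4 and 5, against 63.5 to 155.2 CPM in Fpr2KO. Of 17 negative regulators 14 had lower estimates (median -0.11), and Socs3 (-0.55, SE 0.21), Atf3 (-0.39, SE 0.16), the receptor Il1rl1 (-0.55, SE 0.22) and the inhibitor Nfkbia (-0.47, SE 0.20) had the smallest p-values. Inducible genes can also respond to cell handling. The summed CPM of 9 immediate early genes, a separate list, was 10580 to 13410 in Fpr2KO and 12980 to 19920 in WT, with all 9 lower in estimate. A part of handling in the target gene values was not tested.

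**Figure D5:**
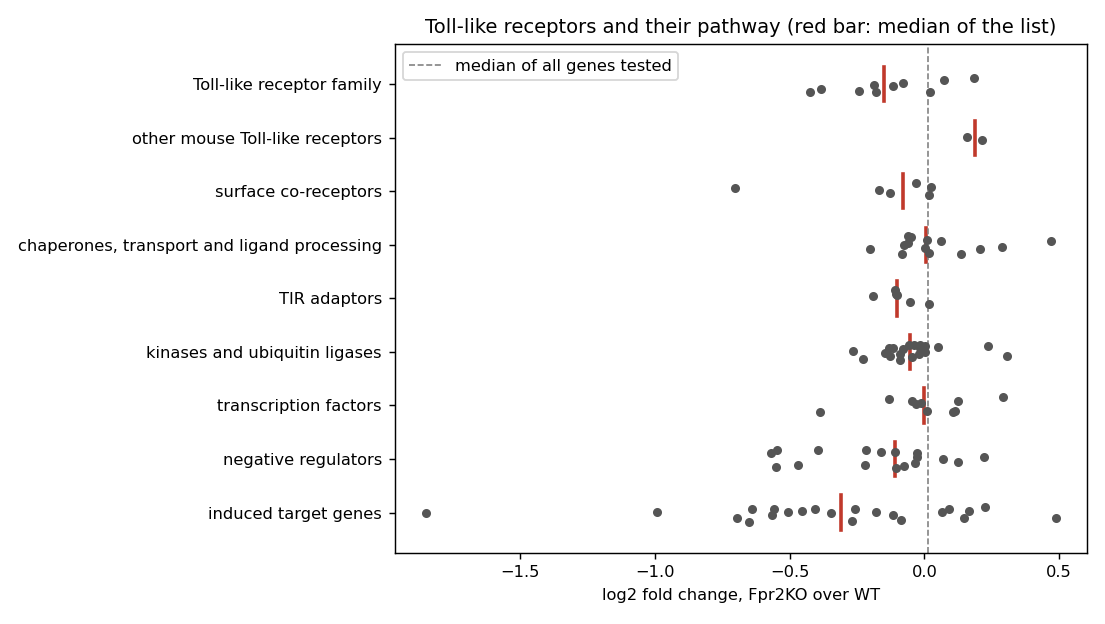
Log2 fold change in Fpr2KO over WT of each tested gene (points) in the Toll-like receptor family and 8 lists of its pathway (rows); red bars are list medians and the dashed line is the median of all genes tested (0.01). Points are spread vertically for visibility. The induced target genes have the lowest median (-0.31), and the transcription factors split 5 to 5.

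Transcripts that mark other cell types were measured beside those of macrophages. Macrophage markers were present in every library, with Adgre1, which encodes F4/80, at 524.5 CPM in Fpr2KO and 524.0 CPM in WT, and the 10 red pulp markers summed to 7825 to 10760 CPM in Fpr2KO and 8194 to 10510 CPM in WT. Neutrophil markers, 11 of 12 tested and all 11 lower in estimate, summed to 532.4 to 990.9 CPM in Fpr2KO and 939.1 to 1564 CPM in WT. Classical monocyte markers, all 7 lower in estimate, summed to 410.5 to 695.4 CPM in Fpr2KO and 664.1 to 1122 CPM in WT. Those of nonclassical monocytes, all 6 lower in estimate, summed to 651.4 to 994.5 CPM in Fpr2KO and 762.4 to 1162 CPM in WT. Neutrophils and monocytes are known to express Tlr2, and monocytes Tlr13, and the part of either cell type in those values was not tested. B cells and plasmacytoid dendritic cells are known for Tlr9 and Tlr7, and the part of either in those values was not tested. B cell markers, all 7 higher in estimate, summed to 2871 to 3836 CPM in Fpr2KO and 2201 to 3344 CPM in WT, and those of plasmacytoid dendritic cells to 30.96 to 48.2 CPM in Fpr2KO and 23.0 to 49.8 CPM in WT. Erythroid markers, all 7 higher in estimate, summed to 199.0 to 480.5 CPM in Fpr2KO and 19.2 to 195.4 CPM in WT. Mitochondrial transcripts made up 3.22 to 3.985% of counts in 4 Fpr2KO libraries and 6.04% in Fpr2KO replicate 2, against 4.83 to 6.09% in WT, so 4 of 5 Fpr2KO libraries lay below every WT library. Whether these transcripts, the erythroid ones or the platelet ones had a part in the receptor values was not tested. By edgeR 0 of the markers of these lists passed the FDR, and none was at 0 in all libraries. The targeted gene Fpr2 had 0 reads in every Fpr2KO library, against 325 to 574 reads in WT, and each library held between 15865820 and 19060188 counts.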

How the data were processed

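RNA from 10 libraries of F4/80-selected mouse splenic macrophages, 5 Fpr2KO and 5 WT, was sequenced. The authors deposited unnormalised whole-number counts of reads for each Ensembl gene. The submitters' processing notes name HTSeq 0.10.0, FastQC 0.10.1, mm10 and GRCm38; aligner, strand setting and annotation version: not given in the sources used here. GENCODE M21 (GRCm38) named 52081 of 55414 genes. Groups came from the genotype labels and replicate numbers from the titles. Totals ran from 15865820 to 19060188 counts.

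Counts were fitted in R 4.3.3 with edgeR 4.0.16 (filterByExpr, TMM, glmQLFTest with robust=TRUE, Benjamini-Hochberg over 14669 genes, threshold 0.05; common biological coefficient of variation 0.179). CPM used TMM-scaled library sizes, and log2 CPM a prior count of 2. The SE is the log2 fold change over the square root of F. TPM divided counts by the union of annotated exons. As a check for duplicated libraries, chi-square per degree of freedom between replicates was 11.2 to 60.9. No library was thus a copy of another in its group, and all were kept. This check does not measure library quality. The fit was tested on simulated data with changes larger than any estimate of the members, so that test does not bear on differences of their size. Alternatives were RLE, upper quartile, no filter, DESeq2 1.42.0, limma voom (limma 3.58.1), a replicate block and leaving out each library. Members and gene lists were chosen with earlier results of these data known. Genes named outside the family are Fpr2, up to 4 of each pathway list by p-value, the 2 markers of highest CPM per list and the 3 closest patterns per member. Adgre1, Unc93b1, Hsp90b1, Xist and Ddx3y were named beside this rule as checks of cells, transport and sex.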

Additional observations from a re-analysis of the deposited data

Results flagged for a closer look

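Within groups of 5 libraries, 2 of 20 member groups held a library far from the others by Dixon's criterion, and chance flags about 1 in 20 such groups. Tlr5 stood at 14.4 CPM in Fpr2KO replicate 5, against at most 7.94 CPM in the other Fpr2KO libraries. Tlr13 stood at 71.1 CPM in Fpr2KO replicate 4, against at least 98.3 CPM in the other Fpr2KO libraries.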

How the results depend on the processing

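No Toll-like receptor gene passed the FDR under any of the 16 alternatives, and the median log2 fold change of the 10 ran between -0.184 and -0.087 in fits without 1 library. The lowest FDR among all members and alternatives was 0.0771, for Tlr13 with DESeq2. The number of genes past the FDR over the whole table was 10, and it became 62 with no filter, 185 with DESeq2 and 8 to 51 without 1 library, 26 without Fpr2KO replicate 2 or WT replicate 4 and 51 without WT replicate 5. Of the pathway genes, 1 passed with no filter, 2 with DESeq2 and 0 to 1 without 1 library. The sign turned for Tlr1 (-0.05 to 0.087), Tlr4 (-0.204 to 0.002) and Ly86 (-0.092 to 0.023) in fits without 1 library, all close to 0; the cause was not tested. Leaving out 1 library moved the estimate over 1.5 times for Tlr3, Tlr5, Tlr6, Tlr7, Tlr8, Tlr9 and Rel, with the values given above. It also did so for Cd14 (-0.017 without Fpr2KO replicate 4), Ly96 (-0.301 without Fpr2KO replicate 2) and Ticam2 (-0.12 without WT replicate 2). The same held for Socs3 (-0.349 without WT replicate 3), Tlr11 (0.137 without WT replicate 3) and Tlr12 (0.103 without Fpr2KO replicate 3). Relb (0.03 to 0.186), Pld4 (-0.124 to -0.041), Irf8 (0.066 to 0.163), Ripk1 (-0.206 to -0.083) and Rnaset2b (0.176 to 0.402) also moved that far over these fits. With the length of the longest transcript, Tlr9 was at 41.7 and Tlr6 at 11.3 TPM, and Tlr3 (11.8) stood above Tlr6.

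Whether the replicate numbers pair the libraries is not given in the labels, and the values do not settle it. The deviations of same-numbered libraries correlated between -0.24 and 0.29. Of the 10 libraries, 4 correlated best with their own number, those of replicates 2 and 4. With the replicate block, 64 genes passed the FDR, 1 of them in the pathway (Acod1, named after its values were seen), and Tlr2 had an FDR of 0.0937 and Tlr13 of 0.112 by edgeR. The scalings of Tlr13 by total counts and by TPM were chosen after seeing the data. Tlr5, at 7 to 14 CPM, is the member that depth limits most.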
